A study of Mus musculus with 14 samples.

Results

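The unfolded protein response genes described here are 10 genes chosen by name: Hspa5, Hsp90b1, Calr, Pdia4, Xbp1, Atf4, Ddit3, Atf6, Ern1 and Eif2ak3. They are 10 of the 55414 genes in the count table, all were found in it, and all passed the filter on low counts in each fit. They were measured by RNA-seq in 14 libraries of granulosa cells (GCs) from antral follicles of female mice at 12 weeks of age, kept on chow diet, with about 50 cells per library. The db model gave 4 libraries of db/db mice (strain B6.BKS(D)-Leprdb/J, a mutation of the leptin receptor gene Lepr) and 4 of their lean littermate controls (CT db). The ob model gave 3 libraries of ob/ob mice (strain B6.Cg-Lepob/J, a mutation of the leptin gene Lep) and 3 of their lean littermate controls (CT ob). The mutations were carried in all tissues of the mutants, and the sample labels give the controls of both models as wild type while the names of their columns read as heterozygous. Within a group the libraries are called A, B, C and D in the order of their column names, so the letters pair nothing across groups. Whether the libraries of a group came from separate animals is not given in the sources used here, and p-values measure the spread between these libraries.

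The endoplasmic reticulum (ER) folds secreted and membrane proteins, and the unfolded protein response is the set of signals that a cell sends when unfolded protein builds up there. Its sensors sit in the ER membrane and are IRE1 (gene Ern1), PERK (Eif2ak3) and ATF6 (Atf6), and the chaperone BiP (Hspa5) binds to them when it is not busy with unfolded protein. IRE1 splices the mRNA of Xbp1, PERK slows translation and favours that of Atf4, and ATF6 is cut in the Golgi to release a transcription factor. The factors made from these steps raise ER chaperones, and ATF4 raises Ddit3, whose product CHOP is linked to cell death. Most of these steps act on protein or on splicing, and a count per gene does not see them. GCs of antral follicles secrete protein hormones such as inhibin and follistatin, which are folded in the ER.

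The libraries held 2204686 to 8367593 counts on genes, and 3 counts, taken as the floor of detection, amounted to 0.359 to 1.36 CPM (read counts scaled to a common library total). This floor covers counting error only, because the protocol has no molecular identifiers, while the 95% intervals of fold changes come from the edgeR fits and include the spread between libraries. The granulosa markers fixed for this work, 10 genes such as Fshr, Cyp19a1 and Foxl2, summed to 5683 to 16446 CPM per library. None of the granulosa markers was called within a model, and 4 of 10 were higher at an unadjusted p under 0.05 in ob/ob than in CT ob (median log2 fold change 0.77). In CT ob against CT db, 1 of them, Fshr, was called lower, 3 were lower and 1 higher at an unadjusted p under 0.05, and the median was -0.58. Markers of endothelium, macrophages, stroma, smooth muscle and luteal cells each summed to at most 118 CPM, and theca markers to 238 to 1444 CPM. Oocyte markers summed to 3.09 to 222 CPM in CT db, 5.11 to 53.2 in db/db, 61.4 to 982 in CT ob and 108 to 631 in ob/ob, and all 7 oocyte markers tested had an unadjusted p under 0.05 for higher levels in ob/ob than in db/db (4 of 7 in CT ob against CT db). The 18S ribosomal RNA gene took up to 24.5% of the counts in CT ob, in library C, and up to 12.8% in the other groups. The gene-level counts of the mutated genes were low, at 0 to 3 for Lep and 0 to 17 for Lepr, and do not check the labels.

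Compared per kilobase, the chaperones stood far above the sensors. Levels are given here as CPM scaled by TMM (a normalization of library totals) per kilobase of all merged exons of a gene. Hspa5, the ER chaperone BiP, ranked 21 of the 12555 genes with a length, with a median of 548 and a range of 448 to 713 CPM per kilobase over the 14 libraries. Hsp90b1, the ER chaperone GRP94, followed at 310 (range 207 to 430.1), and its libraries did not overlap with those of Hspa5. Calr, the lectin chaperone calreticulin, had a median of 124 and Pdia4, a protein disulfide isomerase, of 71.4 CPM per kilobase.

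The transcription factors and sensors lay lower in the order. Atf4 had a median of 49.0 and Xbp1 of 36.9 CPM per kilobase, and the ranges of these neighbours overlapped. A gap followed, since the lowest library of Xbp1 (31.5) was above the highest of Ern1 (8.28). The sensors Ern1, Atf6 and Eif2ak3 had medians of 5.61, 5.46 and 4.15 CPM per kilobase, near the middle of all genes, and their ranges overlapped. Ddit3 was lowest with a median of 0.913, rank 10631, and did not overlap with Eif2ak3. All bases of its canonical transcript overlap exons of other genes, as given below, and the effect of this on its level was not tested. With the length of the canonical transcript in place of all merged exons, an alternative chosen after the data were seen, Hsp90b1 (median 669) came before Hspa5 (615) and Xbp1 (129.9) before Pdia4 (93.2). With that length the ranges of Ddit3 and Eif2ak3 overlapped, while the gap above the sensors remained, between Atf4 and Ern1.

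**Figure D1:**
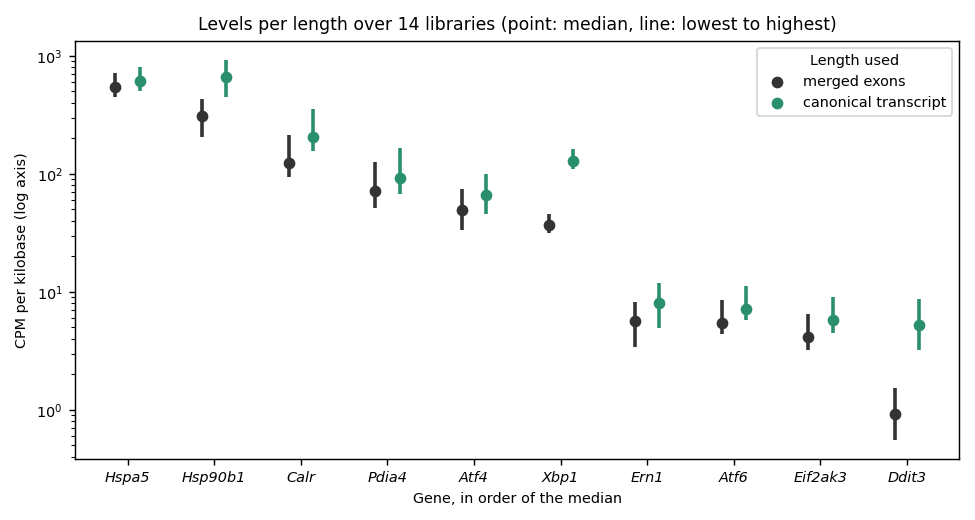
Levels of the 10 genes as TMM-scaled CPM per kilobase on a log axis, with the median (point) and the lowest to highest of 14 libraries (line), for 2 definitions of gene length. The chaperones stand between 51.7 and 929 whichever length is used, and the sensors between 3.19 and 11.9.

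The genes lie on GRCm39 at chr2:34661982-34668880 (Hspa5, plus strand), chr10:86526073-86541446 (Hsp90b1, minus), chr8:85567946-85573667 (Calr, minus), chr6:47770077-47790462 (Pdia4, minus), chr11:5470606-5483027 (Xbp1, plus), chr15:80139372-80141745 (Atf4, plus), chr10:127124268-127132163 (Ddit3, plus), chr1:170532026-170696208 (Atf6, minus), chr11:106283818-106378686 (Ern1, minus) and chr6:70821461-70882235 (Eif2ak3, plus). Some of these genes share bases with others, and their counts are less certain for that. All 979 bases of the canonical transcript of Ddit3 overlap exons of other genes in the GENCODE annotation, 778 of them exons of Mars1 on the opposite strand, and the strand setting of the counting is not given in the sources used here. Hspa5 shares 2204 of 4953 canonical bases with Rabepk on the opposite strand, which had 54 to 241 counts per library against 5747 to 32164 for Hspa5. Calr, Xbp1, Atf4 and Ern1 shared none.

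The region before the start of a chaperone gene is where the factors of this response are known to bind, through the ER stress element ERSE, written CCAAT, 9 bases of any kind, and CCACG. The search covered both strands of RefSeq promoters (250 bases before and 50 after the start, GRCm38.p6 table), and 9 of the 10 genes had an entry. ERSE was found in 3 of these 9 genes, and in 39 of all 32851 promoters (0.119%), a share of promoters and not of genes. ERSE is known from chaperone genes of this response, so its presence in them is a description and not a test. The 250 bases before the RefSeq start of the 3 genes with a match are shown with each ERSE match in capitals. Beside them are those of Pdia4, the member with the largest difference between the models, in which no match was found. All run 5′ to 3′ on the strand of the gene, and were placed by exact match on GRCm39 at chr2:34661852-34662101 (plus strand, Hspa5), chr10:86541309-86541558 (minus, Hsp90b1), chr8:85573561-85573810 (minus, Calr) and chr6:47790447-47790696 (minus, Pdia4). In the GENCODE annotation the outermost transcript of each of these genes begins inside its window.
Hspa5: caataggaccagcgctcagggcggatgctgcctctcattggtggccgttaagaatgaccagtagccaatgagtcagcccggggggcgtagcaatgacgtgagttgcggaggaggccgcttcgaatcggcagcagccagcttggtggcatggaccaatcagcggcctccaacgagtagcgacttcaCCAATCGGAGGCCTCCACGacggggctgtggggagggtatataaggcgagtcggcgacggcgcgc
Hsp90b1: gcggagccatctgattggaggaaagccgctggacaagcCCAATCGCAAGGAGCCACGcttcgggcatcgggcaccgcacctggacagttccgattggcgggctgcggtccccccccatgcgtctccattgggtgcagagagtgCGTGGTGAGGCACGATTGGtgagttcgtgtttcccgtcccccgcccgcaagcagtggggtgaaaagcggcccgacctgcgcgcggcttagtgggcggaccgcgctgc
Calr: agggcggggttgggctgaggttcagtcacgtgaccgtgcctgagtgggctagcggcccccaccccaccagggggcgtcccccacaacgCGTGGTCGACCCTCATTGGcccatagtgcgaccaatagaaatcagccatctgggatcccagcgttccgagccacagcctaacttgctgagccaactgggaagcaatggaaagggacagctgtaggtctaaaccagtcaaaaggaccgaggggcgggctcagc
Pdia4: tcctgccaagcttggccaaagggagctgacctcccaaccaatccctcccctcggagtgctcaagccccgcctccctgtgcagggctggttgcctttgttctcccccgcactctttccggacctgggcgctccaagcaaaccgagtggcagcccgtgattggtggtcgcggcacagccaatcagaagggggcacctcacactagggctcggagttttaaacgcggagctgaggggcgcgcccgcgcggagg
The match in Hspa5 lies at bases -65 to -47 from the start on the strand of the gene. Hsp90b1 has matches at -212 to -194 and, on the other strand, at -107 to -89, and Calr has 1 on the other strand at -162 to -144. ERSE-II (ATTGG, 1 base of any kind and CCACG), the core TGACGTGG of the unfolded protein response element and the core TGATGNAA of the amino acid response element were found in none of the 9 windows, against 0.0365%, 0.676% and 3.97% of all promoters. Among other ER folding genes, ERSE was found in 5 of 20 with an entry (Canx, Creld2, Dnajc3, Ero1b and Pdia6). Among targets of ATF4 and CHOP, the core TGATGNAA was found in 8 of 22, such as Asns, Atf3 and Trib3. A match is a string of letters and does not show that a factor binds there.

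In the db model, no member passed the test between db/db and CT db (edgeR's quasi-likelihood test, Benjamini-Hochberg adjusted p of 0.05 or less over all genes tested), with adjusted p from 0.732 to 0.968. Of all 11317 genes tested 1 was called (0.00884%). No member had an unadjusted p under 0.05 in edgeR or in DESeq2, against 7.59% of all genes in edgeR. No member's groups were free of overlap, against 4.14% of all genes. In the ob model, ob/ob against CT ob, none was called either (adjusted p from 0.734 to 0.989), none had an unadjusted p under 0.05 in either tool, and of all 12425 genes 0 were called (0.0%), with 8.16% at an unadjusted p under 0.05. Groups without overlap were found for 1 member, Hsp90b1, against 15.8% of all genes. The median log2 fold change of the 10 genes within models was 0.07 (db) and 0.16 (ob), beside 0.01 and -0.04 for all genes tested.

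Between the controls of the 2 models, the counts of members were near the shares of all genes, and between the mutants no member was called in edgeR. In CT ob against CT db, 1 of 10 members was called, Pdia4, which was higher in CT ob, where 6.63% of the 12586 genes tested were called (2.24% higher and 4.39% lower). An unadjusted p under 0.05 was reached by 3 members (Pdia4, Calr and Ern1), all higher in CT ob, against 26.9% of all genes, and groups without overlap by 2 (Pdia4 and Ern1), against 21.2%. In ob/ob against db/db no member was called in edgeR, where 0.0159% of all genes were, but 3 members (Pdia4, Hspa5 and Hsp90b1) had an unadjusted p under 0.05, against 8.19%, and the same 3 were higher in every ob/ob library than in every db/db library, against 9.91% of all genes. In DESeq2, Hspa5 (adjusted p = 0.0412) and Pdia4 (0.0397) were called in that comparison, where 72 of the 12586 genes were called. In edgeR the difference of the mutant effects (ob minus db) was called for no member and for 0.0% of all genes. An unadjusted p under 0.05 was found there for 0 members and for 8.11% of all genes. DESeq2 called that difference for no member and for 72 of the 12586 genes. In DESeq2 2 members had an unadjusted p under 0.05, and the share of all genes is not given here. Model, colony and any batch cannot be told apart in the comparisons between models, and they share libraries with the comparisons within models. In libraries of pooled cells, fewer cells of a type and less RNA per cell cannot be told apart.

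**Figure D2:**
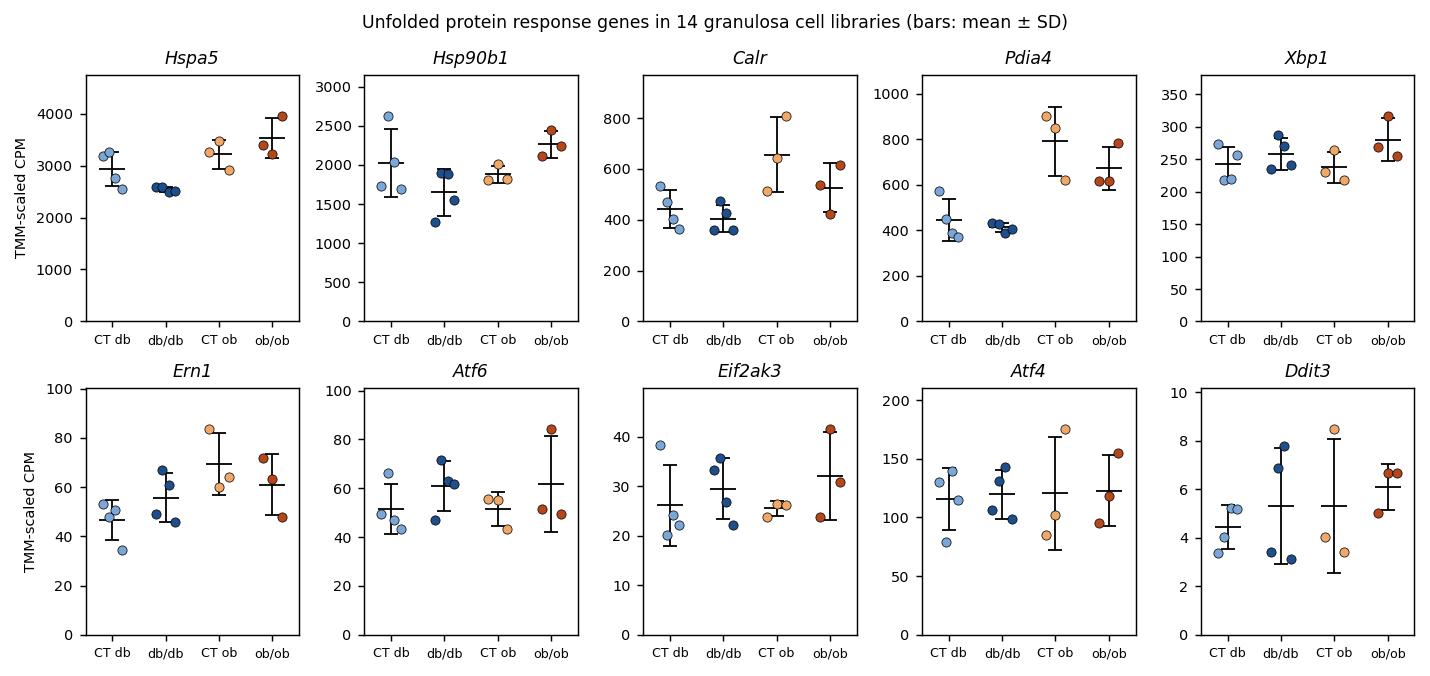
TMM-scaled CPM of each gene by group, 1 point per library (4 CT db, 4 db/db, 3 CT ob and 3 ob/ob) with the mean and SD, on axes that start at 0. Pdia4 stands at 618 to 904 CPM in all 6 libraries of the ob model and at 371 to 573 in all 8 of the db model, while the other genes overlap between the models.

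Pdia4, which rearranges disulfide bonds in the ER, was the member with the largest difference between models. It was at 573, 451, 390.1 and 371 CPM in CT db A to D and at 904, 849 and 620.4 CPM in CT ob A to C. The mean was 446 ± 91.2 (SD, n = 4) in CT db and 791 ± 150.4 (SD, n = 3) in CT ob. Every CT ob library was above every CT db library, with a log2 fold change of 0.83 (SE 0.18, 95% interval 0.45 to 1.21, edgeR adjusted p = 0.0199). The exact permutation p between these controls was 0.0571. In the mutants Pdia4 was at 432, 428, 389 and 405 CPM in db/db and at 618, 618 and 783 CPM in ob/ob. These groups did not overlap either, with a log2 difference of 0.70 (SE 0.18, interval 0.32 to 1.08, edgeR adjusted p = 0.322). Within models Pdia4 was lower in both mutants by values inside the spread, at -0.11 (interval -0.45 to 0.22) in db/db and -0.24 (-0.74 to 0.26) in ob/ob, on the log2 scale. The call between the controls was lost without CT db B (0.83, edgeR adjusted p = 0.0569), CT db D (0.75, 0.0623) or CT ob A (0.72, 0.0608), and with library size as the only scaling (0.86, 0.0514). It stayed without CT ob C, the library rich in 18S counts (0.96, edgeR adjusted p = 0.0311). Oocyte markers also differed between the models, without overlap between the mutants (5.11 to 53.2 CPM in db/db and 108 to 631 in ob/ob), and their part in the difference of Pdia4 was not tested.

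Hspa5, the most abundant member, had a narrow range in db/db. It was at 3176, 3252, 2752 and 2552 CPM in CT db A to D and at 2582, 2581, 2487 and 2514 CPM in db/db A to D. The groups overlapped in the lowest control, and the log2 fold change was -0.21 (SE 0.14, interval -0.52 to 0.10, edgeR adjusted p = 0.746). In the ob model Hspa5 was at 3252, 3474 and 2915 CPM in CT ob and at 3402, 3217 and 3959 CPM in ob/ob. These groups overlapped, with a log2 fold change of 0.13 (SE 0.21, interval -0.34 to 0.60, adjusted p = 0.881 in edgeR). All 3 ob/ob libraries were above all 4 db/db libraries, with a log2 difference of 0.47 (SE 0.14, interval 0.16 to 0.78, unadjusted p = 0.00518 and adjusted p = 0.348 in edgeR).

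Hsp90b1, the ER form of the HSP90 chaperones, had estimates of opposite sign in the models, neither of them past the threshold. It was at 1731, 2629, 2037 and 1695 CPM in CT db and at 1268, 1900.0, 1886 and 1548 CPM in db/db. The groups overlapped, and the log2 fold change was -0.30 (SE 0.19, interval -0.72 to 0.12). It was at 1814, 2009 and 1825 CPM in CT ob and at 2108, 2444 and 2238 CPM in ob/ob. Every ob/ob library was above every CT ob library, with a log2 fold change of 0.26 (SE 0.19, interval -0.18 to 0.70) and an exact permutation p of 0.1, the smallest that 3 against 3 libraries allow. The difference of the mutant effects was 0.56 on the log2 scale (SE 0.26, interval -0.00 to 1.12), with an unadjusted p of 0.0502 and an adjusted p of 0.609 in edgeR.

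Calr binds calcium and sugar chains on folding proteins. It was at 532, 469.9, 403 and 365 CPM in CT db and at 514, 643 and 809 CPM in CT ob, with an overlap between CT db A and CT ob A. The log2 difference was 0.57 (SE 0.19, interval 0.16 to 0.98), with an adjusted p of 0.0834 in edgeR and 0.0422 in DESeq2, so that Calr was called in DESeq2 but not in edgeR. DESeq2 called 1563 of the 12586 genes in that comparison. In the mutants Calr was at 361, 472, 425 and 361 CPM in db/db and at 537, 424 and 616 CPM in ob/ob, and every pair of neighbouring groups overlapped. The fold changes within models were -0.13 (db/db, SE 0.16) and -0.32 (ob/ob, SE 0.24) on the log2 scale.

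**Figure D3:**
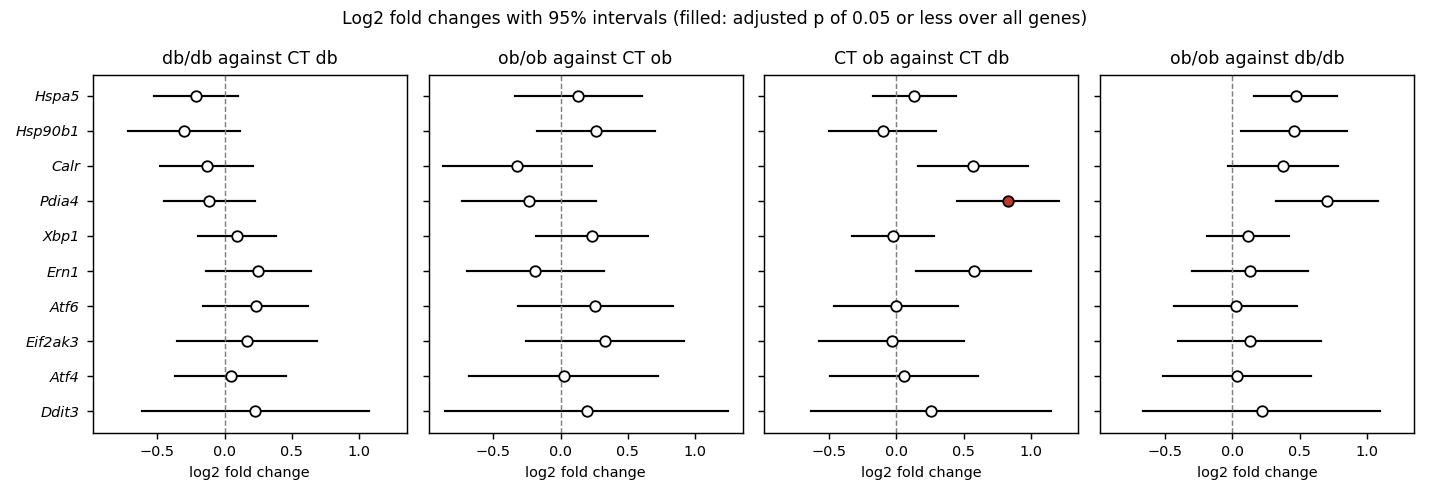
Log2 fold change (point) with its 95% interval (line) for each gene in 4 comparisons, filled where the adjusted p was 0.05 or less. All intervals include 0 within the models, and Pdia4 between the controls is the 1 filled point, at 0.83.

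A count of one gene per 100 counts of another in the same library needs no scaling between libraries. This measure was chosen after the values were seen and is given as a description. Pdia4 had 18.04, 13.9, 14.2 and 14.5 counts per 100 counts of Hspa5 in CT db and 16.7, 16.6, 15.6 and 16.1 in db/db. It had 27.8, 24.4 and 21.3 in CT ob and 18.2, 19.2 and 19.8 in ob/ob. The lowest library of the ob model was thus just above the highest of the db model, and CT ob stood apart from ob/ob. Calr had 14.3 to 16.8 counts per 100 of Hspa5 in CT db, 13.99 to 18.3 in db/db, 15.8 to 27.8 in CT ob and 13.2 to 15.8 in ob/ob, and the groups overlapped except that the lowest CT ob library was just above the highest of ob/ob. Hsp90b1 had 49.1 to 80.8 counts per 100 of Hspa5 over all 14 libraries, with overlap between all groups. Hspa5 itself made up 43.2% to 50.5% of the counts of the 10 members, which together took 0.481% to 0.798% of a library.

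**Figure D4:**
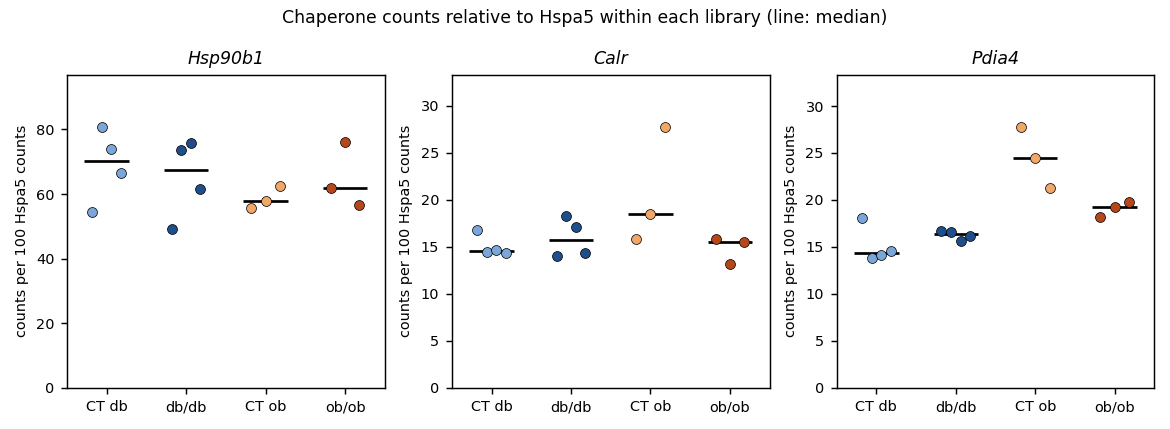
Counts of Hsp90b1, Calr and Pdia4 per 100 counts of Hspa5 in each library, with the median of each group as a line, on axes that start at 0. Pdia4 has medians of 14.3 in CT db, 16.3 in db/db, 24.4 in CT ob and 19.2 in ob/ob, while Hsp90b1 overlaps between all groups.

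Among the sensors, Ern1 encodes IRE1, the kinase and endonuclease that splices Xbp1. It was at 53.1, 47.7, 50.8 and 34.6 CPM in CT db and at 83.6, 60.1 and 64.2 CPM in CT ob. The controls did not overlap, with a log2 difference of 0.58 (SE 0.20, interval 0.15 to 1.003, unadjusted p = 0.0117 and adjusted p = 0.0891 in edgeR). In the mutants it was at 49.0, 67.1, 61.0 and 45.9 CPM in db/db and at 71.9, 63.4 and 47.8 CPM in ob/ob, which overlapped with their controls and with each other. The log2 fold changes within models were 0.25 (SE 0.18) in db/db and -0.19 (SE 0.22) in ob/ob, and their difference was -0.44 (SE 0.29, edgeR adjusted p = 0.688).

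Atf6 encodes the membrane-bound factor that is released by cleavage. It was at 49.4, 66.4, 46.9 and 43.4 CPM in CT db, and at 46.9, 71.4, 63.2 and 61.8 CPM in db/db. It was at 55.6, 55.4 and 43.3 CPM in CT ob and at 51.7, 84.3 and 49.5 CPM in ob/ob. The groups overlapped in every comparison, with log2 fold changes of 0.23 (SE 0.18) in db/db and 0.26 (SE 0.25) in ob/ob. The library ob/ob B had the highest level of Atf6, Eif2ak3, Hsp90b1 and Xbp1 in its group, and the lowest of Hspa5, Calr and Pdia4.

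Eif2ak3 encodes PERK, the kinase that slows translation. It was at 38.2, 20.2, 24.2 and 22.1 CPM in CT db, and at 33.2, 35.7, 26.8 and 22.2 CPM in db/db. It was at 23.8, 26.4 and 26.3 CPM in CT ob and at 23.8, 41.5 and 30.9 CPM in ob/ob. All groups overlapped, and CT ob was the narrowest. The log2 fold changes were 0.17 (SE 0.24, interval -0.35 to 0.68) in db/db and 0.33 (SE 0.26, interval -0.26 to 0.92) in ob/ob.

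Among the transcription factors, Xbp1 is the substrate of IRE1, and its count adds the spliced and unspliced forms. It was at 273, 219, 219.9 and 256 CPM in CT db and at 235, 288, 270.5 and 242 CPM in db/db. It was at 230.1, 265 and 219 CPM in CT ob and at 269, 317 and 255 CPM in ob/ob. The groups overlapped throughout. The intervals of the log2 fold changes, -0.20 to 0.38 in db/db and -0.19 to 0.65 in ob/ob, were the narrowest of the 10 genes in each model.

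Atf4 encodes the factor whose translation PERK favours. It was at 130.1, 79.2, 139.7 and 115 CPM in CT db and at 106, 131, 143 and 99.0 CPM in db/db. It was at 84.7, 102 and 175 CPM in CT ob and at 95.4, 118 and 155 CPM in ob/ob. The group means lay between 116 and 123 CPM, closer to each other than the libraries within any group. The log2 fold changes were 0.04 (SE 0.19) in db/db and 0.02 (SE 0.31) in ob/ob, with an interval of -0.68 to 0.73 in ob/ob.

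Ddit3 encodes CHOP and had the fewest counts of the 10 genes, 8 to 54 per library. It was at 3.37, 4.05, 5.22 and 5.18 CPM in CT db and at 3.41, 6.88, 7.79 and 3.12 CPM in db/db. It was at 4.03, 8.48 and 3.41 CPM in CT ob and at 5.01, 6.64 and 6.65 CPM in ob/ob. Every library was above the floor of 3 counts and the groups overlapped. The log2 fold changes of 0.23 in db/db (interval -0.62 to 1.07) and 0.19 in ob/ob (interval -0.86 to 1.25) were the least precise of the 10, and neither interval excluded a 2-fold rise (1 on the log2 scale).

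Within groups, the members differed in how much their libraries varied. The SD of log2 CPM within groups, pooled over the 4 groups, was 0.13 for Hspa5, and 1.62% of the genes tested had a smaller one. It was 0.15 for Xbp1 (3.86% of genes smaller) and 0.22 to 0.25 for Pdia4, Hsp90b1 and Calr. The sensors had 0.27 to 0.33, Atf4 had 0.38 and Ddit3 had 0.48. These SDs include counting error, which is larger at low counts, and the shares are over genes of all levels. Xbp1 was steadier than the more abundant Hsp90b1, and Atf4 varied more than the less abundant sensors.

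With the group means removed, the members did not vary together past the threshold. Of 45 pairs over 14 libraries, 34 had a positive Pearson r and the median r was 0.16, and 0 passed a permutation test within groups after Benjamini-Hochberg adjustment. The pair Hspa5 and Pdia4 had the highest r, 0.84 (permutation p = 0.0116, adjusted p = 0.261, r = 0.80 without the 2 libraries farthest from the median of Hspa5) and a Spearman rho of 0.89 (permutation p = 0.00252, adjusted p = 0.113). Hsp90b1 and Atf6 had an r of 0.75 (permutation p = 0.00412, adjusted p = 0.185, r = 0.60 without 2 libraries) and a rho of 0.70 (permutation p = 0.00837, adjusted p = 0.188). Hspa5 and Hsp90b1, both chaperones with ERSE matches in their promoters, had an r of 0.25 (permutation p = 0.498) and a rho of 0.17 (permutation p = 0.587). With library size as the only scaling 2 pairs passed, so that the count depends on the scaling.

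Members were left out of a search for the genes most like Hspa5 in log2 CPM over the 14 libraries, without removal of group means. The 10 genes most alike had a Pearson r of 0.794 to 0.855. They were Zbtb8b, Msh3, Fkbp14, Hfe, Tuba4a, Gm17816, Lratd1, Ddx51, Pde1b and Ndufs5. Fkbp14, an ER-resident prolyl isomerase, was the 1 gene among them from the lists of this work (r = 0.848, and 0.849 with the group means removed). For Atf4 the most alike included Aprt, Rpl7a, Psmb2 and Rpl9 (r = 0.843 to 0.875), and for Ddit3 the 5 most alike were Gm6012, Mfap5, Ribc1, Ece1 and Tm9sf4 (r = 0.771 to 0.857). These are the highest of 12586 genes with the members left out, over libraries that share their groups, and are given as a description.

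Other genes of ER folding, 24 named in a list, all passed the filter. In db/db against CT db none was called, 3 were lower at an unadjusted p under 0.05 (Ero1b, Pdia3 and Hyou1), against 7.59% of all genes in either direction, and the median log2 fold change was -0.09. Ero1b, an oxidase that recharges disulfide isomerases, was at 33.1 ± 4.28 CPM (SD, n = 4) in CT db and 19.3 ± 4.98 (SD, n = 4) in db/db, with a log2 fold change of -0.79 (SE 0.21, edgeR adjusted p = 0.413). Pdia3, the partner of calreticulin in glycoprotein folding, was at 2378 ± 309 (SD, n = 4) and 1576 ± 249 CPM (SD, n = 4), with -0.60 (SE 0.16, edgeR adjusted p = 0.433). Hyou1, a nucleotide exchange factor for BiP, had -0.34 (SE 0.13, edgeR adjusted p = 0.597). The groups did not overlap for 4 of the 24 genes, these 3 among them, against 4.14% of all genes. For ob/ob none was called, and the smallest p-values were those of Ero1a (0.90, SE 0.32), Dnajb9 (0.50, SE 0.26) and Canx (0.46, SE 0.24) on the log2 scale, with edgeR adjusted p of at least 0.565.

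Between the controls, 5 of the 24 folding genes passed the test (4 higher in CT ob, 1 lower), against 6.63% of all genes. The estimates were above 0 for 14 and below 0 for 10, and 8 were higher and 4 lower at an unadjusted p under 0.05, against 26.9% of all genes, with a median log2 fold change of 0.15 beside 0.06 for all genes tested. Those higher were Hyou1 (0.67, SE 0.17), the disulfide isomerases Pdia6 (0.72, SE 0.20) and P4hb (0.60, SE 0.16), and the prolyl isomerase Fkbp2 (0.96, SE 0.26). Dnajb9, a co-chaperone of BiP, was lower, at 97.2 ± 17.8 CPM (SD, n = 4) in CT db and 48.1 ± 3.42 (SD, n = 3) in CT ob, with -1.01 (SE 0.25, edgeR adjusted p = 0.0326). The other adjusted p-values were 0.0324 to 0.0446 in edgeR. All 5 calls were lost with library size as the only scaling, that of P4hb also with every gene of at least 1 count and that of Fkbp2 after downsampling, and each was lost when certain single libraries were left out (5 of the 14 for Dnajb9, 6 for Hyou1, 8 for Fkbp2, 9 for P4hb and 11 for Pdia6), CT db B, CT db D and CT ob C among them for all 5. Between the mutants none was called, 9 were higher at an unadjusted p under 0.05 and none lower, against 8.19% of all genes in either direction, and the median was 0.29 beside -0.01 for all genes tested. All 7 oocyte markers tested were also higher in ob/ob than in db/db at an unadjusted p under 0.05, and their part in this count was not tested.

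ER-associated degradation removes misfolded protein through the ER membrane, and 18 of 18 listed genes were tested. None was called within a model, and the 3 smallest p-values were those of Derl1 (-0.26), Edem3 (0.20) and Vcp (0.16) for db/db and of Herpud1 (0.66), Sel1l (0.40) and Erlec1 (0.63) for ob/ob, as log2 fold changes. In CT ob against CT db, 1 of the 18 was called higher and 3 lower, against 6.63% of all genes called. The lectin Os9 was the 1 higher (0.92, SE 0.21, edgeR adjusted p = 0.0254). Among those called lower were the lectin Erlec1 (-1.08, SE 0.25, edgeR adjusted p = 0.0263) and Herpud1 (-0.80, SE 0.23, edgeR adjusted p = 0.0476). The call of Herpud1 was lost with upper-quartile factors, with library size only, after downsampling and when any 1 of 13 libraries was left out, and those of Os9 (CT db B, C and D and CT ob C) and Erlec1 (CT db B and D and CT ob A and B) for any 1 of 4. None of the 18 was called in ob/ob against db/db.

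Targets of ATF4 and CHOP were often near the floor. Of 25 listed genes 17 were tested for db/db and 19 in the ob model. Chac1, Bbc3 and Fgf21 had at most 3 counts in every library, and Trib3 and Atf3 had at most 3 in every db/db library. None was called within a model, and the smallest p-values were those of Slc7a11 (-1.26, SE 0.56), Psat1 (-0.40) and Cebpb (0.37) for db/db and of Vldlr (2.57, SE 0.83), Nupr1 (-0.98, SE 0.36) and Cebpg (0.55, SE 0.22) for ob/ob, as log2 fold changes. Between the controls 1 of 18 genes tested was called, against 6.63% of all genes. This was Phgdh, an enzyme of serine synthesis, at 29.0 ± 5.88 CPM (SD, n = 4) in CT db and 67.1 ± 19.97 (SD, n = 3) in CT ob, with 1.21 (SE 0.25, edgeR adjusted p = 0.0170). That call was lost without CT db B, CT db D, CT ob A or CT ob C (highest edgeR adjusted p = 0.0611).

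The remaining lists gave 1 call in all. Of the IRE1 arm (among them genes of translocation and targets of XBP1) 15 of 16 genes were tested. Dnajb9, given above, was the 1 called, in CT ob against CT db, where 6.63% of all genes were called. The smallest p-values were those of Ssr3 (-0.31), Srprb (-0.29) and Traf2 (0.29) for db/db and of Ssr1 (0.76), Dnajb9 (0.50) and Rtcb (-0.41) for ob/ob, as log2 fold changes. The list for the control of eIF2, the factor that PERK phosphorylates, also held Nfe2l2, which encodes a transcription factor. All 11 of its genes were tested, led by Eif2s3x (-0.31), Eif2s1 (-0.15) and Ppp1r15b (-0.14) for db/db. In the ob model they were led by Eif2ak1 (-0.44), Nfe2l2 (-0.55) and Eif2ak2 (0.35). Of the ATF6 arm 9 of 11 were tested, led by Nfya (0.39), Atf6b (0.26) and Creb3l2 (0.27) for db/db and by Creb3l2 (0.65), Nfya (0.61) and Creb3l3 (0.85) in the ob model. None of these was called.

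Chaperones outside the ER were compared as well. Of 13 cytosolic heat shock genes 9 were tested in each model, and the median log2 fold change was -0.23 (db/db) and -0.16 (ob/ob). The smallest p-values were those of Hspa4 (-0.39), Dnaja1 (-0.32) and Hsp90aa1 (-0.28) for db/db and of Hsph1 (-0.52), Hsp90ab1 (-0.43) and Hsf1 (-0.24) in the ob model. Of 7 mitochondrial chaperones and proteases the leading genes were Hspe1 (-0.54, SE 0.17), Hspd1 (-0.26) and Lonp1 (-0.10) for db/db and Lonp1 (-0.20), Hspd1 (-0.20) and Clpp (-0.11) in the ob model. None was called in any comparison. Immediate early genes, which respond to handling of cells, summed to 356 to 3944 CPM, with wide overlap between groups, and none was called. Their leading genes were Jund (0.95), Fosb (1.19) and Ier2 (0.59) for db/db and Jund (-1.19), Ier3 (-0.54) and Fos (0.62) in the ob model.

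**Figure D5:**
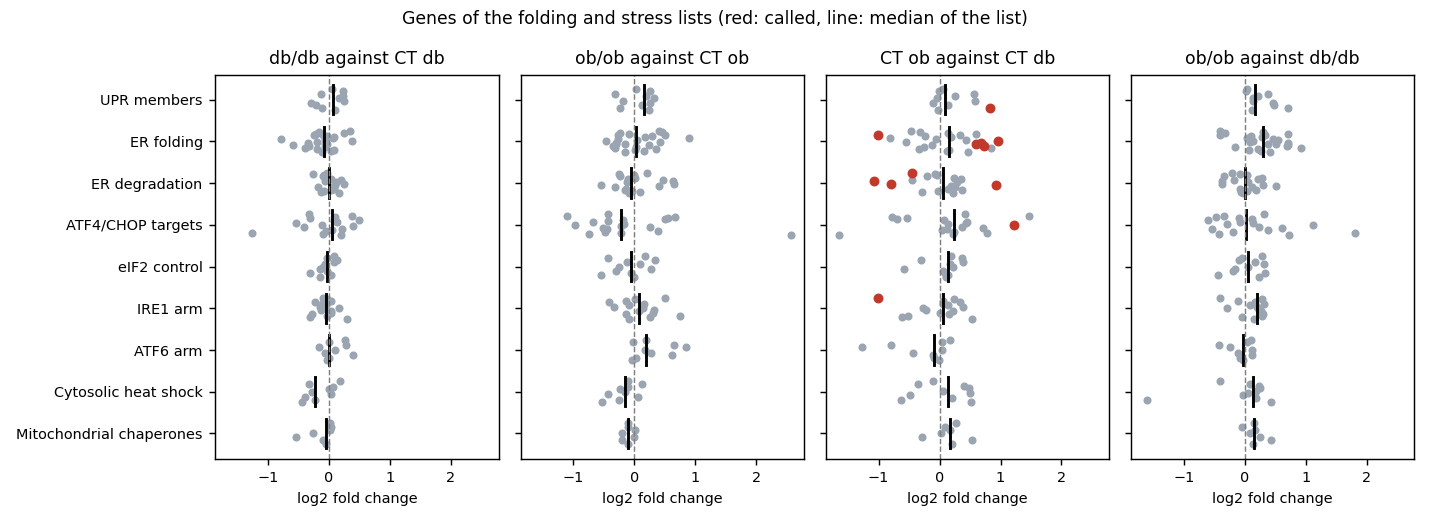
Log2 fold changes of the 10 members (UPR members) and of the folding and stress lists in 4 comparisons, 1 point per gene tested, with the median of each list as a line and called genes in red. Red points appear in CT ob against CT db only, and the medians within the models lie between -0.23 and 0.19.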

How the data were processed

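RNA-seq libraries of pooled granulosa cells were compared between 4 groups. The authors deposited raw read counts per gene, which are not normalized. By the study's methods, reads were trimmed with cutadapt 1.18, aligned with STAR 2.7.10a to GRCm39 and counted with featureCounts 2.0.1, while the submitters' processing notes name Trim Galore 0.6.2, HISAT2 2.1.0 and GRCm38. The strand setting is not given in the sources used here. The count table matched a symbol in the annotation for 98.8% of its gene IDs. Counts were tested with edgeR 4.0.16 (quasi-likelihood, TMM factors, R 4.3.3), with genes kept by filterByExpr (minimum count 10, minimum total 15) and Benjamini-Hochberg adjustment at 0.05 over all genes tested. Each model was fitted alone, and comparisons between models came from 1 fit of all 14 libraries. Intervals are 95%. Log2 CPM used a prior count of 2. The scripts were tested on simulated data. Alternatives were DESeq2 1.42.0, other normalizations and filters, downsampling and leaving out each library. The 10 genes and all lists were chosen with earlier results of these data known. Besides the members, the text names the 3 genes of each list with the smallest p in each model, every called gene of a folding or stress list, and the genes most alike to Hspa5, Atf4 and Ddit3. Some genes that this rule names are not reported here.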

Additional observations from a re-analysis of the deposited data

How the results depend on the processing

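No paired analysis was possible because the sample labels give no pairing of libraries across groups. The columns of the table also carry no replicate numbers of the labels. The cause of the changes below was not tested. Genes called in db/db against CT db numbered 1, and 44 with DESeq2, 2 with library size only, 270 with every gene of at least 1 count, 0 with at least 10 counts in every library, 0 in 1 fit of all 14 libraries, 2 after downsampling and 1 to 4 when a library was left out. For ob/ob against CT ob they numbered 0, and 86 with DESeq2, 359 with every gene of at least 1 count and 1 in 1 fit of all libraries. In CT ob against CT db they numbered 834, and 1563 with DESeq2, 265 with library size only, 1727 with every gene of at least 1 count and 112 (without CT ob C) to 1199 (without CT db A) when a library was left out. Of those calls 282 were higher and 552 lower, a share higher of 33.8%, against 352 and 434 (44.8%) with upper-quartile factors. In ob/ob against db/db they numbered 2, and 72 with DESeq2, 535 with every gene of at least 1 count and 1 with at least 10 counts in every library. For the difference of the mutant effects they numbered 0, and 72 with DESeq2, 329 with every gene of at least 1 count and 0 to 1 when a library was left out.

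Of the 10 members, the number called in CT ob against CT db was 1, and 2 with DESeq2, 0 with library size only and 0 to 1 when a library was left out. In ob/ob against db/db it was 0, and 2 with DESeq2 and 1 with every gene of at least 1 count. Neighbours in the order of levels that stood apart numbered 3, and 4 with library size only and 2 with the canonical transcript length, which was chosen after seeing the data. Pairs of members that varied together numbered 0, and 2 with library size only (Hspa5 with Pdia4, and Hsp90b1 with Atf6). None of the log2 fold changes that changed sign was called, and the values below are those after the change. In CT ob against CT db these were Xbp1 (0.022), Atf6 (0.045) and Eif2ak3 (0.0090) with upper-quartile factors, Atf4 (-0.0017) and Atf6 (0.022) with library size only, Atf4 (-0.0016) with every gene of at least 1 count and Atf6 (0.0090) with at least 10 counts in every library. After downsampling they were Ddit3 in the db model (-0.011, against 0.23 before) and Atf4 in the ob model (-0.036, against 0.023 before). Ddit3 in the difference of the mutant effects also changed sign after downsampling (0.13, against -0.041 before). In that difference they were also Atf4 with library size only (0.044) and, with every gene of at least 1 count, Atf4 (0.099) and Ddit3 (0.037).

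When a library was left out, estimates that changed sign ranged in db/db against CT db from -0.19 to 0.028 for Pdia4, -0.10 to 0.13 for Atf4 and -0.013 to 0.43 for Ddit3. In ob/ob against CT ob they ranged from -0.18 to 0.40 for Atf4, -0.023 to 0.71 for Ddit3 and -0.028 to 0.40 for Atf6. In CT ob against CT db they ranged from -0.18 to 0.048 for Hsp90b1, -0.11 to 0.038 for Xbp1, -0.32 to 0.25 for Atf4, -0.25 to 0.46 for Ddit3, -0.077 to 0.15 for Atf6 and -0.14 to 0.20 for Eif2ak3. In ob/ob against db/db they ranged from -0.17 to 0.19 for Atf4, -0.27 to 0.16 for Atf6, -0.0025 to 0.27 for Ern1 and -0.11 to 0.30 for Eif2ak3. In the difference of the mutant effects they ranged from -0.33 to 0.012 for Calr, -0.22 to 0.37 for Atf4, -0.24 to 0.47 for Ddit3, -0.27 to 0.16 for Atf6 and -0.074 to 0.34 for Eif2ak3. The planned comparison of protein ends was not run. Ddit3 had the fewest counts of the members, 8 to 54 per library, and the widest intervals in both models.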
